A study of Mus musculus with 4 samples.

Results

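Voltage-gated calcium channels open when a neuron is depolarised and let calcium in, which triggers transmitter release, shapes firing and drives activity-dependent transcription. The pore is the alpha1 subunit, and the alpha1 genes define the current types. Cacna1c and Cacna1d encode L-type channels of the cell body and dendrites, Cacna1a and Cacna1b the P/Q-type and N-type channels of presynaptic terminals, Cacna1e the R-type channel, and Cacna1g, Cacna1h and Cacna1i the low-voltage T-type channels that set rhythmic and burst firing. Cacnb2 and Cacnb4 encode cytoplasmic beta subunits, which bind the pore and regulate its trafficking and gating.

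The methylation of the cytosines of these 10 genes was followed in the brains of female mouse offspring. Of 2226271 CpG sites measured in the hippocampus, 3283 lay in the 10 genes, from 1 kb before the gene start to the gene end (RefSeq, GRCm38.p6). A site here is 1 cytosine of a CpG on 1 strand. Of 9731 CpGs listed for the frontal cortex, 13 were assigned to the 10 genes in the deposited annotation. Sites were assigned to the genes by position in the hippocampus and by annotated name in the frontal cortex. No methylation value entered that assignment, but the 10 genes were chosen with earlier results of these data known.

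The 4 groups were CD-1 wild-type females, with 1 library each: E3 and CT in the frontal cortex, and E3 and CT in the hippocampus. CD-1 is an outbred stock. The mothers of the E3 mice had carried an osmotic pump loaded with 50 µl of estriol (E3) at 0.46 mg/ml in DMSO from gestation day 9, for 7 days, and those of the CT mice a pump with DMSO alone. The labels give an age of 8 weeks, the study's account of its brain expression experiments gives an older age, and the number of mice behind each library is not given in the sources used here. With 1 library per group, treatment, animal and library cannot be told apart, and every test below compares 2 libraries.

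Methyl-MiniSeq, a reduced representation bisulfite method, reads the cytosines near the cutting sites of MspI (CCGG) and TaqαI (TCGA). The hippocampus sites of the 10 genes had a median of 24 reads in E3 and 9 reads in CT, against 27 and 9 reads over all sites. A site was called when E3 and CT differed by at least 10 percentage points with an unadjusted p under 0.05 in a 2-sided Fisher's exact test on its reads, with at least 5 reads in both libraries. Intervals are 95% Wilson intervals and cover counting error only. Intervals and p-values on reads summed over several CpGs, as for promoters, take these reads as independent. Neighbouring CpGs can share reads, and such intervals are then too narrow and such p-values too small. By how much was not tested. Where the depth of neighbouring sites of the 10 genes on 1 strand changed by over 25% in both libraries, it doubled or halved in both, within 5%, in 60.5% of cases (59.6% over all CpG sites). Whether overlapping reads of 1 fragment were counted as 2 was not tested. If they were, the read counts given here are too high at such sites, and the intervals are too narrow and the p-values too small. The calls with halved reads are given below. Among 16 promoters of cell type marker genes, 10 were measured and 3 were called. Over all promoters measured, 9.67% were called. Cx3cr1 of microglia was at 63.0% in E3 and 97.9% in CT. P2ry12 of microglia was at 60.5% and 40.4%, and Gfap of astrocytes at 67.6% and 56.4%. Aldh1l1 of astrocytes, not called, was at 38.4% in E3 and 44.7% in CT. The 4 neuronal promoters were not called. Of these, Snap25, Syt1 and Tubb3 were at 0.532 to 4.31%, where a difference of 10 points is hard to reach. Rbfox3 was at 71.6% of 81 reads in E3 and 60.8% of 51 in CT. The share of each cell type in the libraries was not measured, and its part in the results was not tested.

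A few stretches of the channel genes that hold runs of called sites described below, or CpGs listed in the frontal cortex, are shown first as examples, in GRCm38.p6 on the coding strand, 5′ to 3′. Capitals mark CpGs that were called in the hippocampus on at least 1 strand or listed in the frontal cortex.
Cacna1h exon (chr17:25382967-25383132, minus strand): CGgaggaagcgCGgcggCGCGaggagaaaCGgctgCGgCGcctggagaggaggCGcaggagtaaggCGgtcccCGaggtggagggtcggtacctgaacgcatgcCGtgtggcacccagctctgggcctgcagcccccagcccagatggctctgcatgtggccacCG
Cacna1a exon (chr8:84559396-84559649, plus strand): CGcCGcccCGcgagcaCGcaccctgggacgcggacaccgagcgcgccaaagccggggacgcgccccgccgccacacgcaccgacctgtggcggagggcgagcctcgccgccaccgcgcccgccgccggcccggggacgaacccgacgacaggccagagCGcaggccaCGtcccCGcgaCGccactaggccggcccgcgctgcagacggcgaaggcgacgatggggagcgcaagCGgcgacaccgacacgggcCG
Cacna1a intron (chr8:84617130-84617292, plus strand): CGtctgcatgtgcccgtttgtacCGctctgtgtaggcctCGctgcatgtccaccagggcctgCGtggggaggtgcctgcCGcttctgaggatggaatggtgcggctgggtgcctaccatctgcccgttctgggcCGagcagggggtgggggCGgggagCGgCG
Cacna1c last coding exon (chr6:118593892-118594081, minus strand): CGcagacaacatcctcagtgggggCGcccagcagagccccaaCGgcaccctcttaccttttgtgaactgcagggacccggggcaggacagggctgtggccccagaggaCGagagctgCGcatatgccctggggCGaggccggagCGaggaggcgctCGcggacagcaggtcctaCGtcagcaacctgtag
Cacna1d intron (chr14:30316951-30317075, minus strand): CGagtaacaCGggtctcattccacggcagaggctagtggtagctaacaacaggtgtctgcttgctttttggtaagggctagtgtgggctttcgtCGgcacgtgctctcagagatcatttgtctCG
Cacnb4 intron (chr2:52509727-52509771, minus strand): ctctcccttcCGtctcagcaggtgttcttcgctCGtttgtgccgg

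The 12 capitalised CpGs of Cacna1h lie across the end of a coding exon and the intron after it, with 84 of the 166 bases coding. The Cacna1a exon stretch is coding throughout and holds 48 CpGs in 254 bases. The Cacna1c stretch is the coding end of the gene, and its last 3 bases are the stop codon. The Cacna1a, Cacna1d and Cacnb4 intron stretches hold 12, 7 and 4 CpGs.

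In the hippocampus, methylation of the channel genes differed between E3 and CT at scattered sites in both directions, with almost no difference in the average. Of the 3283 sites, 267 were called higher and 181 lower in E3, which is 13.6% of them, against 11.0% of all CpG sites measured (6.18% higher and 4.83% lower) and 10.2% of those in genes (5.39% higher and 4.79% lower). Outside promoters, 434 of 2910 sites of the channel genes (14.9%) were called, against 13.4% of all CpG sites in genes outside promoters. In promoters, 14 of 373 (3.75%) were called, 2 higher and 12 lower, against 5.45% of all promoter sites (1.75% higher and 3.69% lower). A site near 0 or 100% in both libraries can hardly be called. Among sites with a mean level of 10 to 90%, 31.4% were called in the channel genes and 30.7% in all genes. Within each of these classes of sites the channel genes as a group were near the background.

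The mean over all sites of the 10 genes was 50.3% in E3 and 49.7% in CT, and the median difference was 0 in every one of the 10 genes. More sites were called higher than lower outside promoters in the channel genes (265 and 169), as over all CpG sites in genes outside promoters (7.88% higher and 5.54% lower). At greater depth the split was even. With at least 20 reads in both libraries, 36 sites of the channel genes were called higher and 37 lower, against 20527 higher and 20664 lower over all sites. When the reads of each site were halved, an alternative chosen after seeing the data, 114 sites were called higher and 56 lower, 5.18% of the sites against 3.85% of all sites.

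**Figure D1:**
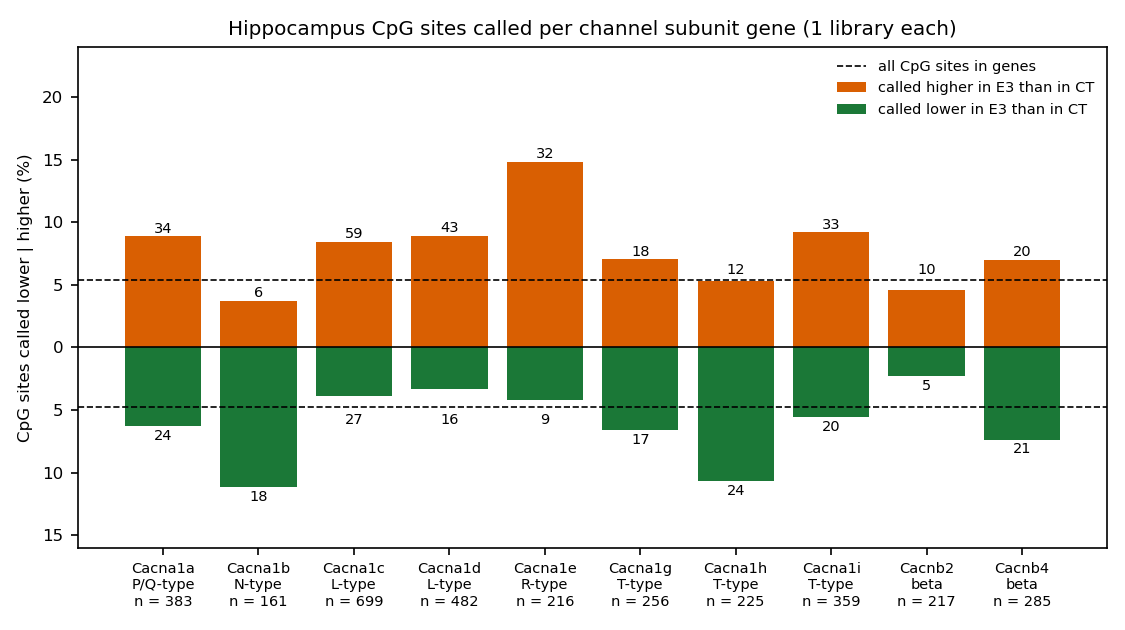
Share of hippocampus CpG sites called higher (upward bars) and lower (downward bars) in E3 than in CT for each channel gene, in percent of the gene's measured sites, with the counts at the bars. Dashed lines mark the shares over all CpG sites in genes (5.39% higher, 4.79% lower). Promoter sites are a larger part of that set than of the channel genes. Outside promoters the shares over all CpG sites in genes were 7.88% higher and 5.54% lower. Cacna1e has the highest upward bar (32 of 216 sites), and Cacna1b and Cacna1h are the genes with the longest downward bars (18 of 161 and 24 of 225).

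By gene, 7 of 10 had more sites called higher than lower, and 3 had more called lower. Among the 16 other subunit genes described below, 8 had more called higher and 7 more called lower. Over all CpG sites, too, more were called higher (6.18%) than lower (4.83%). The R-type gene Cacna1e had the largest share of called sites (19.0%), with 32 higher and 9 lower, and a mean of 54.2% in E3 against 47.4% in CT. In the L-type genes, Cacna1c had 59 higher and 27 lower of 699 sites and Cacna1d 43 higher and 16 lower of 482. The N-type gene Cacna1b ran the other way, with 6 higher and 18 lower of 161 sites and a mean of 37.6% in E3 against 41.4% in CT. The P/Q-type gene Cacna1a had 34 higher and 24 lower of 383 sites and means of 32.1% in E3 and 32.1% in CT.

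The 3 T-type genes did not share a direction. Cacna1h had 12 higher and 24 lower of 225 sites, with a mean of 35.3% in E3 against 38.7% in CT. Cacna1g had 18 higher and 17 lower of 256 sites, and Cacna1i 33 higher and 20 lower of 359. Of the beta subunit genes, Cacnb2 had the smallest share of called sites of the 10 genes (6.91%), with 10 higher and 5 lower of 217 sites. Of these sites, 72 lay in the promoter, at a mean of 1.00% in E3 and 1.12% in CT, where a call is hard to reach. Cacnb4 had 20 higher and 21 lower of 285. Several gene means changed direction with the weighting or the minimum depth. For Cacna1b the difference, E3 minus CT, was -3.87 points as a mean over sites and 5.50 points as a mean over reads, and for Cacna1i it was 0.616 and -0.200 points, against 4.35 points with at least 10 reads and 13.5 points with at least 20. With at least 20 reads the difference was -10.04 points in Cacna1g, against 0.431 points over all its sites, and -2.40 points in Cacna1d, against 2.70 points. Cacna1e was higher in E3 over reads and with at least 10 or 20 reads (3.19 to 9.02 points). Cacna1h was lower over reads and with at least 10 reads (-7.82 and -1.52 points), and had no value with at least 20.

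**Figure D2:**
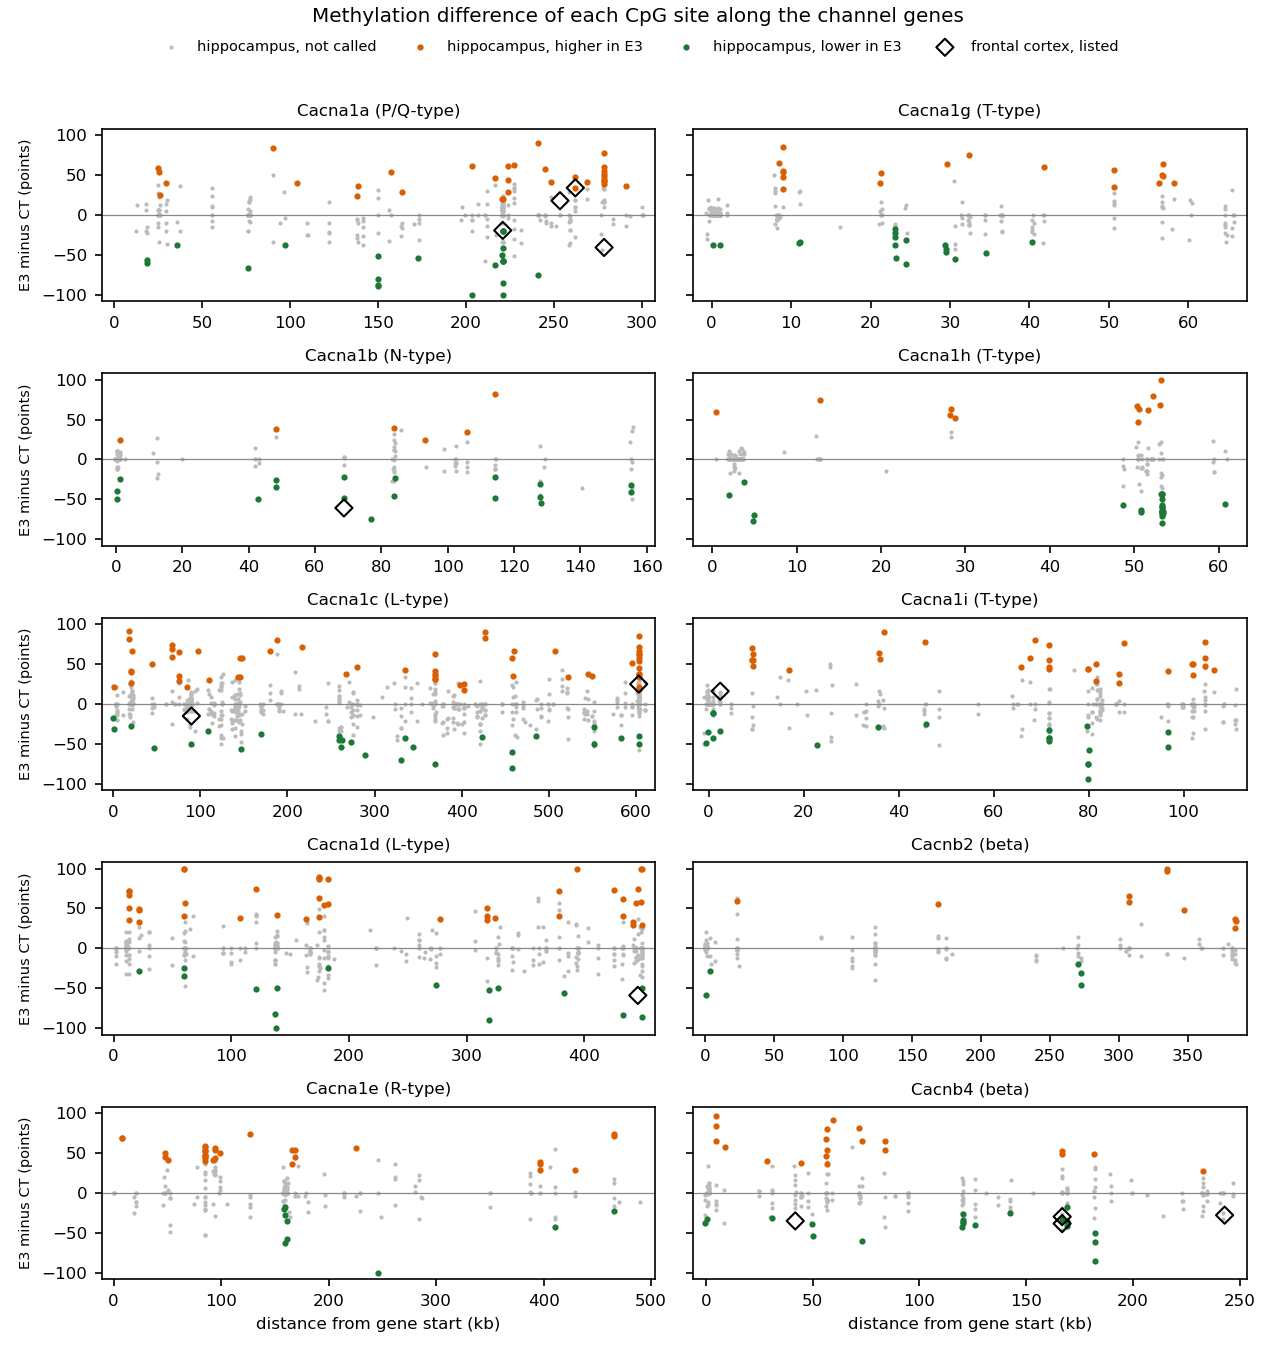
Methylation difference, E3 minus CT in percentage points, of each hippocampus CpG site (dots) and each CpG listed in the frontal cortex (open diamonds) against the distance from the gene start in kb, 1 panel per channel gene. Called sites are coloured by direction and lie along the whole length of the genes, with columns of several called sites at single places such as the 3′ end of Cacna1c and the 3′ part of Cacna1h.

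The called sites fell partly into runs, taken as 3 or more sites called in 1 direction with no more than 200 bases from 1 called site to the next. There were 34 runs, 22 higher and 12 lower, of 28 to 348 bases, and 20 of them lay in introns alone and 12 touched a coding exon. The runs held 159 of the 448 called sites. Cacnb2 had no run and Cacna1i the most (6). The runs held 35.5% of called sites in the channel genes, with 10.4 runs per 1000 sites, against 30.1% and 7.26 over all CpG sites in genes. Over all CpG sites in genes, 5846 runs were higher and 5921 lower. Whether the channel genes differ from the rest in the number or direction of runs was not tested. Neighbouring sites of a run can share reads, so they are not independent observations. The intervals given below for whole runs treat the site reads as independent and are too narrow where reads are shared.

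The run with the most called sites lay in Cacna1h, in the stretch of exon and intron shown above. Of 22 sites in 155 bases, 16 were called lower, at 11 CpGs, 5 of which were called on both strands. The sites ranged from 20 to 100% in E3 and were at 100% in CT without exception. Over the run, 46.8% of 222 site reads were methylated in E3 (95% interval 40.4-53.4%) and 100% of 183 in CT (97.9-100%), with a median of 13 and 9 reads per site. At the single CpG 25383102 the level was 30% in E3 (20 reads, interval 14.5-51.9%) and 100% in CT (17 reads, interval 81.6-100%). Its adjusted Fisher's exact test p over all CpGs was 8.5e-04. The CpG next to the run on its 5′ side, at 25383131 and first in the printed sequence, went the other way, at 95% in E3 and 35.3% in CT. There the minus strand alone was called, with 100% of 14 reads in E3 and 0% of 9 reads in CT, while the plus strand had 83.3% of 6 reads in E3 and 75.0% of 8 in CT. A second Cacna1h run, in a coding exon at 25385764 to 25385973, had 3 of 12 sites called higher, with 77.1% in E3 and 67.4% in CT.

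Cacna1a had runs in both directions. In a coding exon about 221 kb into the gene, 10 of 44 sites in 251 bases were called lower. The level of the whole stretch was low, with 4.33% in E3 (3.17-5.89%) and 13.0% in CT (10.5-16.0%). The 4 CpGs at 84559554, 84559563, 84559569 and 84559574 were at 0% in E3 and at 33.3 to 57.1% in CT on their strands. Of the other called sites, 3 near the 5′ edge were at 0% in E3 and 20% in CT on the plus strand, and 2 near the 3′ edge at 0% in E3 and 85.7% and 100% in CT on the minus strand, the CT values from 7 and 6 reads. On the minus strand the sites from 84559400 to 84559449 were at 0 to 23.8% in E3 and 0% in CT, and were not called. They include the other strand of the 3 CpGs near the 5′ edge, which were thus higher in E3 on that strand. Most of the remaining sites between were at 0 in both libraries. At the 5′ edge, the CpG 84559396 was called higher on the minus strand. In an intron run that spans the intron stretch shown and 1 more CpG before it (84616945 to 84617292), 9 of 13 sites were called higher, all on the minus strand, with 41.5% in E3 (36.7-46.4%) and 0.826% in CT (0.146-4.53%). The CT values there rest on 8 to 18 reads per site. The CpG 84617281 had 77.4% in E3 (31 reads) and 0% in CT (9 reads, interval up to 29.9%). Another Cacna1a run, at 84488643 to 84488700 in an intron, was lower at both of its CpGs and on both strands. The first of these CpGs was at 7.58% in E3 (66 reads) and 92.6% in CT (27 reads), with an adjusted Fisher's exact test p of 8.1e-12.

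In the L-type genes all 8 runs were higher in E3, beside 5846 higher and 5921 lower over all CpG sites in genes. At the end of Cacna1c, 10 of 27 sites were called higher across the last coding bases and the first bases after the stop codon, with 48.6% in E3 (45.1-52.1%) and 19.1% in CT (15.3-23.5%). Of the 9 CpGs called there, only 1 was called on both strands. The CpG 118593877, just past the stop codon, was at 51.3% in E3 (113 reads) and 0% in CT (52 reads, interval up to 6.88%) and was called on both strands. A second Cacna1c run, in an intron at 118827508, had 56.2% in E3 and 21.1% in CT. In Cacna1d the intron run shown above alternated. The CpG 30316980 was at 87.6% in E3 (97 reads) and 0% in CT (21 reads, interval up to 15.5%), called on both strands. Its neighbours at 30316975 and 30316983, 5 and 3 bases away, were at 71.4 to 89.3% in E3 and 100% in CT on the strands, and were not called.

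**Figure D3:**
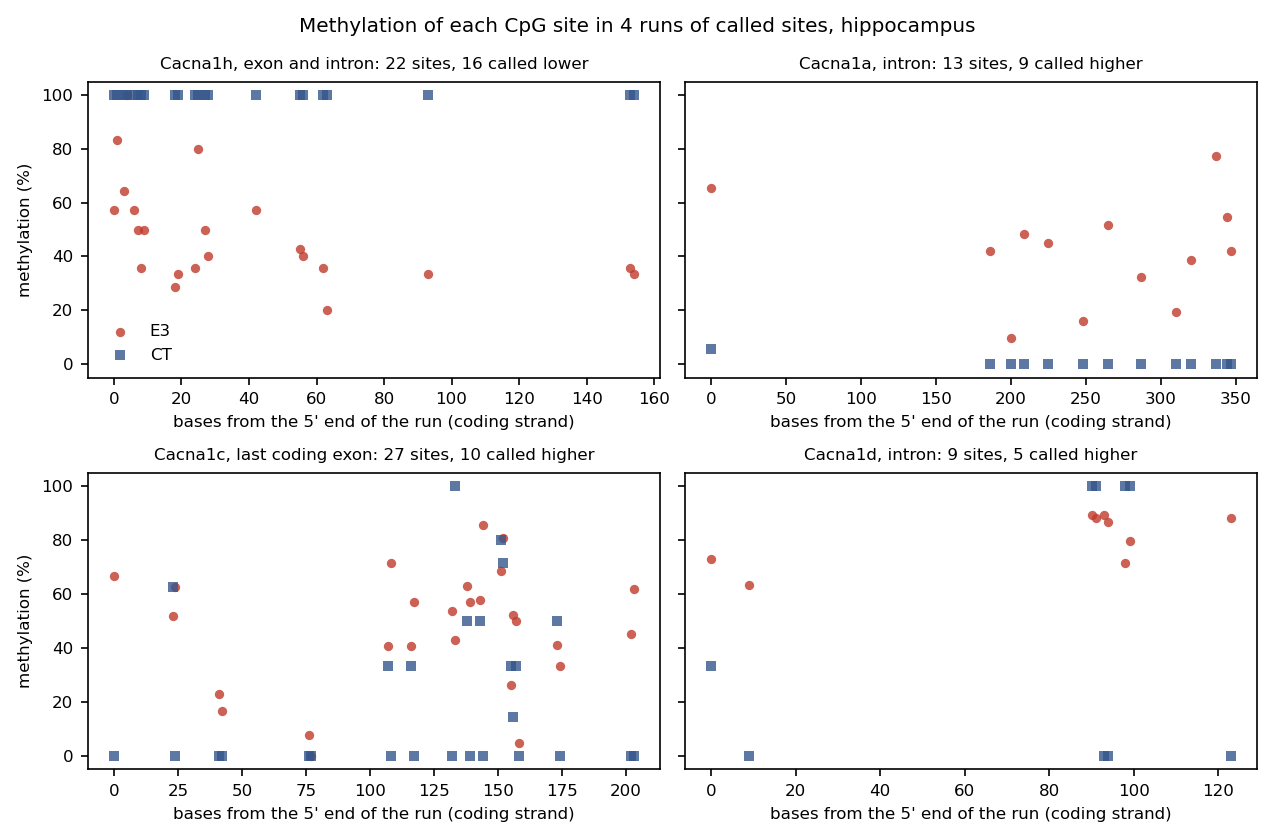
Methylation level in percent of each CpG site in 4 hippocampus runs (Cacna1h, Cacna1a, Cacna1c and Cacna1d) against the distance in bases from the 5′ end of the run on the coding strand, with E3 as red circles and CT as blue squares. In Cacna1h every CT site is at 100% and the E3 sites lie between 20 and 100%, in Cacna1a nearly every CT site is at 0, and in Cacna1c and Cacna1d sites with large and small differences alternate.

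In Cacna1e, 4 of 5 runs were higher in E3, the clearest in an intron at 154790700 to 154790733, with 50.0% of 160 site reads in E3 and 0% of 35 in CT (interval up to 9.89%). The CT values of that run rest on 7 to 14 reads per site, which can be shared between sites. A coding exon held a run of 7 sites called higher at 154799519 to 154799579, with 73.1% in E3 and 30.4% in CT. In the run that was lower, with 8.89% in E3 and 19.1% in CT, the CpG 154725700 lay 220 bases after a transcript start. It was at 5.26% in E3 (190 reads) and 30.1% in CT (93 reads) and was called lower on both strands. The only Cacna1b run was lower, with 62.0% in E3 and 90% in CT at 24635187 to 24635402.

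Of the T-type genes, Cacna1g had a run higher in a coding exon at 94465407 to 94465481, with 74.7% in E3 (69.4-79.4%) and 28.3% in CT (20.4-37.8%), and 2 runs lower in introns, with 36.8% in E3 and 79.2% in CT in the one at 94444865. Its other run higher, at 94417537, had 80% in E3 and 59.3% in CT. Cacna1i had 4 runs higher and 2 lower. In its coding run at 80391710 the level was 70.1% of 144 site reads in E3 and 5% of 40 in CT, and in its intron run at 80367105 it was 23.4% in E3 and 84.2% in CT. Cacnb4 had 2 runs higher, both in introns, with 81.7% in E3 and 22.9% in CT in the one at 52671805. Its 3 runs lower had 12.5%, 19.4% and 64.7% in E3 against 57.5%, 35.5% and 88.9% in CT. The largest differences in Cacnb2 were at 14938916 and 14939070, at 100% and 96.7% of 30 reads each in E3 and 0% of 6 reads each in CT, a depth that leaves the CT level anywhere up to 39.0%.

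When the reads of both strands of a CpG were summed, 226 of 2487 CpGs were called higher and 161 lower (15.6%, against 12.1% of all CpGs, with 6.73% higher and 5.36% lower). Of 796 CpGs measured on both strands, 26 (3.27%) were called in 1 direction on both, 10 higher and 16 lower, against 1.73% of all CpGs. Another 10 (1.26%) were called in opposite directions on their strands, against 0.900%. Most of the called CpGs among the 796, 145, were called on 1 strand only, as were 85693 of 503685 over all CpGs. Among the up to 3 CpGs per gene and direction with the smallest p, 60 in all, 26 were measured on both strands and 15 of those were called on both. Of the 60, 55 kept an adjusted p under 0.05 over all CpGs (Fisher's exact test, Benjamini-Hochberg), and 12 had fewer than 10 reads in CT.

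Around the starts with at least 5 measured sites, methylation was low in both libraries at most genes. Of the 10 genes, 5 had at least 5 measured CpG sites within 1 kb of the gene start, and none of the 5 differed by 10 points. A promoter this low in both libraries can hardly differ by 10 points. The 9.67% of all promoters measured that were called are therefore no measure for these 5, and smaller differences are not excluded. The reads methylated were 1.35% in E3 and 3.45% in CT at Cacna1b, 3.66% and 1.86% at Cacna1g, 4.85% and 4.34% at Cacna1i, and 0.784% and 0.674% at Cacnb2. Of the 5, Cacnb4 differed most, with 2.44% in E3 (1.59-3.75%) and 8.52% in CT (6.16-11.7%). The CpG 52677124, which lies 0.515 kb before the gene start, was at 3.23% in E3 (62 reads) and 41.2% in CT (34 reads). Around the Cacnb4 start at 52675859, used by 5 transcripts, the level was 1.35% in E3 and 0.917% in CT over 64 sites. At Cacna1h 2 sites of the gene start were measured and 1 was called, with 100% of 15 reads in E3 and 40% of 10 in CT. At the Cacna1c gene start, used by 38 transcripts, 4 sites were measured, with 59.6% in E3 and 66.0% in CT, 1 called higher and 2 lower. At Cacna1a and Cacna1d no site of the gene start was measured.

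Channel genes have several starts, and the gene start is not always the one most transcripts use. In Cacna1d 23 transcripts start at or near 30353484, where 1.03% of reads were methylated in E3 and 4.06% in CT over 70 sites, 2 of which were called, both lower. The bases around the start are shown for 1 called CpG that lies 14 bases after it and is in capitals (GRCm38.p6, coding strand, with 30 transcribed bases at the end).
Cacna1d promoter (chr14:30353457-30353656, minus strand): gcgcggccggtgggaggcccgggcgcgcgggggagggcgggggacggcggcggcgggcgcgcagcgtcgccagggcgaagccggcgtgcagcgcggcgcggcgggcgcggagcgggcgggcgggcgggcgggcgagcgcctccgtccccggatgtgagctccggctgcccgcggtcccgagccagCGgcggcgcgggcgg

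That CpG was at 0% of 48 reads in E3 (interval up to 7.41%) and 58.8% of 34 reads in CT (42.2-73.6%). The CT strands disagreed, with 100% of 20 reads on the plus strand and 0% of 14 on the minus strand, against 0% of 24 in E3 on each. The 200 bases hold 44 CpGs, 5 CCGG and no TCGA. Searched on the printed strand, which equals the other for these palindromes, CCGG is in 52.8% and TCGA in 22.0% of the 32851 RefSeq promoter windows of 300 bases. A start of Cacna1c used by 7 transcripts likewise had 83 sites at 2.55% in E3 and 2.26% in CT, and 1 CpG there, 119108550, was at 3.57% in E3 (56 reads) and 38.5% in CT (26 reads). Its plus strand, with 0% of 32 reads in E3 and 50% of 20 in CT, was called. Its minus strand, with 8.33% of 24 reads in E3 and 0% of 6 in CT, was not. At the Cacna1e start at 154725920 the level was 10.4% in E3 and 17.3% in CT over 26 sites. With 1 kb around every annotated start, all 10 genes could be measured, and the differences ran from -6.63 points in Cacna1e to 1.15 points in Cacna1g, none called, where 10.3% of all promoters so defined were. Here too the level was low in both libraries in most genes, where a difference of 10 points is hard to reach.

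In the frontal cortex, the deposited table lists only CpGs that had passed the authors' test, without depth, so the values carry no interval. Of the 13 listed CpGs of the channel genes, 9 were lower and 4 higher in E3 (69.2% lower), where 63.7% of all 9731 listed CpGs were lower and 36.3% higher. They lay in 6 genes, with 4 each in Cacna1a and Cacnb4, 2 in Cacna1c and 1 each in Cacna1b, Cacna1d and Cacna1i. None was listed in Cacna1e, Cacna1g, Cacna1h or Cacnb2. The 4 Cacnb4 CpGs were all lower. Of these, 3 were at 0% in E3 and at 38.5%, 35.1% and 27.9% in CT, and the other was at 12.5% in E3 and 42.3% in CT. The largest differences were in Cacna1b, with 21.1% in E3 and 81.8% in CT at 24694461, and in Cacna1d, with 37.0% in E3 and 95.8% in CT at 30045743.

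The hippocampus held reads for 12 of the 13, with 7 of them called, 5 in the same direction and 2 in the opposite one. Over all listed CpGs measured in the hippocampus, 29.0% were called, 14.4% in the same direction and 14.6% in the opposite one. Over the series the same and the opposite direction were about equally frequent, and whether the channel genes differ from that was not tested.

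**Figure D4:**
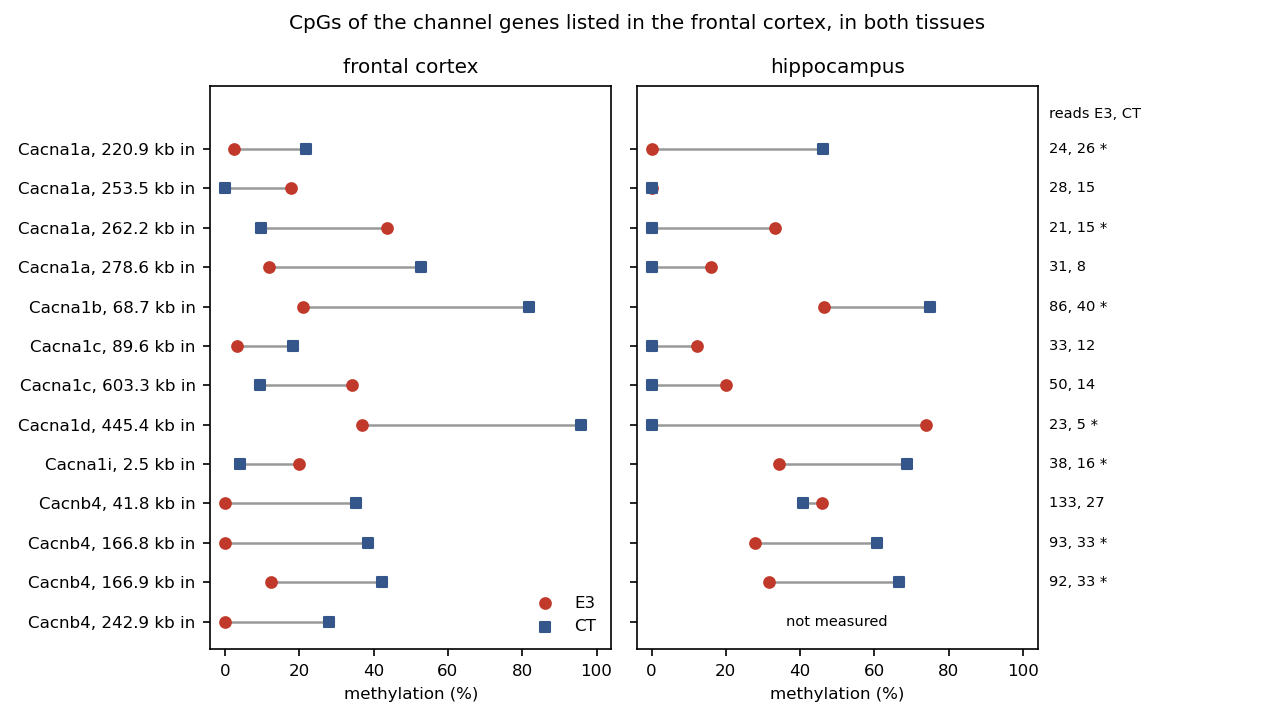
Methylation level in percent in E3 (red circles) and CT (blue squares) of the 13 CpGs of the channel genes listed in the frontal cortex, in the frontal cortex (left) and in the hippocampus (right), each named by its distance from the gene start. Numbers on the right are hippocampus reads in E3 and CT, and stars mark CpGs called there. In the hippocampus E3 is again lower in Cacna1b and at the paired CpGs of Cacnb4, and the Cacna1d and Cacna1i CpGs turn the other way.

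The 5 CpGs that moved together lay in Cacnb4, Cacna1a and Cacna1b. The 2 capitalised CpGs of the Cacnb4 intron, 23 bases apart, were lower in both tissues. They can share reads, so they may not be independent observations. In the hippocampus 52509760 was at 28.0% in E3 (93 reads) and 60.6% in CT (33 reads), and 52509737 at 31.5% and 66.7%. In the Cacna1a exon stretch, 84559569 was at 2.50% in E3 and 21.9% in CT in the frontal cortex, and at 0% of 24 reads in E3 and 46.2% of 26 in CT in the hippocampus (Fisher's exact test p = 1.0e-04). The intronic Cacna1a CpG 84600844 was higher in E3 in both tissues, with 43.6% in E3 and 9.68% in CT in the frontal cortex and 33.3% of 21 reads in E3 and 0% of 15 in CT in the hippocampus. Cacna1b 24694461 was lower in the hippocampus as well, at 46.5% in E3 (86 reads) and 75.0% in CT (40 reads).

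The opposite pair were Cacna1d 30045743, at 73.9% of 23 reads in E3 and 0% of 5 in CT in the hippocampus, and Cacna1i 80289695, at 34.2% of 38 reads in E3 and 68.8% of 16 in CT. In the frontal cortex the Cacna1i CpG was at 20% in E3 and 4.08% in CT. Another 5 listed CpGs were not called in the hippocampus. Among them, 84617192 lies inside the Cacna1a intron run. It was lower in the frontal cortex, with 11.9% in E3 and 52.6% in CT, and at 16.1% of 31 reads in E3 and 0% of 8 in CT in the hippocampus (Fisher's exact test p = 0.563), among neighbours that were called higher there. The Cacna1c CpG 118594038 in the last coding exon was higher in the frontal cortex, at 34.2% in E3 and 9.43% in CT, and at 20% of 50 reads in E3 and 0% of 14 in CT in the hippocampus (p = 0.101, Fisher's exact test).

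Methylation outside CpG is frequent in mature neurons, and it was low here in both libraries. The share of cytosines left unconverted by bisulfite was not measured, and its part in the values below was not tested. In the hippocampus the mean over the CHG sites of the 10 genes was 2.23% in E3 and 2.20% in CT (all sites 2.22% and 2.30%), and over their CHH sites 2.49% and 2.61% (all sites 2.47% and 2.57%). The genes differed in direction. Cacna1c was lower at CHH sites, with 2.61% in E3 and 3.68% in CT over 5018 sites, and Cacna1b was higher, with 2.64% and 1.03% over 855 sites. Cacna1b was higher at CHG sites too, with 3.02% in E3 and 1.12% in CT. In the frontal cortex 9 CHG sites (8 lower in E3, against 79.5% lower of all listed) and 13 CHH sites (8 lower, against 75.3%) of the channel genes were listed. Of these, 5 lay close together in a Cacna1c intron, 118653549 to 118653629, at 0 to 2.50% in E3 and 20 to 30% in CT. Without depth, it cannot be told whether the same few reads gave these values. In Cacna1i a CHH site 4 bases from the listed CpG 80289695 was at 27.8% in E3 and 0% in CT, the direction of that CpG.

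The other subunit genes, 16 in all, complete the family: Cacna1f and Cacna1s encode the L-type pores of retina and skeletal muscle, Cacnb1 and Cacnb3 the remaining beta subunits, Cacna2d1 to Cacna2d4 the extracellular alpha2delta subunits, and the Cacng genes the gamma subunits, several of which serve AMPA receptors. Their 2156 hippocampus sites held 142 called higher and 128 lower (12.5%). The genes with the most called sites were Cacna2d3 with 27 higher and 32 lower, Cacna2d2 with 20 and 20, Cacng2, which encodes stargazin, with 11 and 17, and Cacna2d1 with 17 and 6. Outside promoters 15.4% of their sites were called, beside 14.9% in the 10 genes. The mean over all their sites was 44.3% in E3 and 44.3% in CT. In the frontal cortex 7 of their CpGs were listed, 1 higher and 6 lower, in Cacnb1, Cacna2d3 and Cacng8.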

How the data were processed

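Genomic DNA of frontal cortex and hippocampus was analysed in 4 libraries, 1 per tissue and treatment. The study's methods name TrimGalore, FastQC, Bismark with mm10 and MethylDackel. For the hippocampus, the authors deposited total read counts and methylated fractions (2 decimals) per CpG, CHG and CHH site, and methylated reads were rebuilt as fraction times total, rounded. The rebuilt count can be off above 100 reads, which held for 21 of the 3283 sites in E3 and 9 in CT. The deposited frontal cortex tables hold fractions, from the authors' processing, of listed sites only and without depth. Deposited p-values, differences and classes of the authors' own comparisons were not used.

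Genes, starts and exons were those of RefSeq (GRCm38.p6, the coordinates of mm10). Reads were compared per site with a 2-sided Fisher's exact test, and promoters (1 kb on each side of the start, at least 5 CpG sites) on summed reads with Benjamini-Hochberg adjustment over all promoters. CpGs in both tissues were compared on reads of both strands. The test was checked on simulated data. Named sites followed a fixed rule: every listed frontal cortex CpG, up to 3 CpGs per gene and direction with the smallest p, every run and every promoter differing by 10 points, and up to 4 other subunit genes with the most called sites. The members and lists were chosen with earlier results of these data known. Alternatives were a minimum of 10 or 20 reads, 25 points, adjusted p, summed strands, sites over 200 reads left out, means over reads, other promoters and RefSeq membership. Python 3.11.15, numpy 2.4.6, pandas 2.3.3, scipy 1.17.1, statsmodels 0.14.6 and samtools 1.23.1 were used.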

Additional observations from a re-analysis of the deposited data

Results flagged for a closer look

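At 2 CpGs of the channel genes the libraries of the frontal cortex and the hippocampus differed in opposite directions. The Cacna1d CpG 30045743 differed, E3 minus CT, by 73.9 points in the hippocampus and by -58.9 points in the frontal cortex, and its hippocampus CT value rests on 5 reads. The Cacna1i CpG 80289695 differed by -34.5 points in the hippocampus and by 15.9 points in the frontal cortex. The difference between the tissues was not tested, since the frontal cortex values have no depth and each tissue has 1 library per treatment. Over all listed CpGs, 959 were called in the same and 973 in the opposite direction in the hippocampus.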

How the results depend on the processing

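No paired analysis was possible because each group has 1 library, and no library could be left out. The main counts were 267 sites called higher and 181 lower. A minimum of 10 reads gave 153 higher and 109 lower, a minimum of 20 reads 36 and 37, adjusted p-values 100 and 54, and halved reads, chosen after seeing the data, 114 and 56. With at least 25 points, strands summed or sites over 200 reads left out, both counts stayed within 1.5 times. Over all these alternatives, the share called ran from 4.69% with adjusted p-values to 22.7% with at least 20 reads in the channel genes. Over all sites it ran from 3.35 to 18.4% under the same 2 settings. The mean difference over the 3283 sites was 0.608 points, 3.37 as a mean over reads and 1.30 with at least 10 reads, and the mean difference of single genes moved in 18 of 29 alternatives. At 25 points, 1 frontal cortex CpG was listed higher in place of 4. The promoter difference, -0.387 points, moved to between -0.859 and -0.168 points. Of 60 named CpGs, 55 kept an adjusted p under 0.05 (Fisher's exact test). They had been chosen for the smallest p, so that share says nothing about the other called sites. Depth in CT, a median of 9 reads, limits what a single site can show, and the number of mice behind a library is not given.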
